A study of Arabidopsis thaliana with 64 samples.

Results

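Abscisic acid (ABA) given to Arabidopsis thaliana roots that were fed nitrate and ammonium together changed 1730 of 22746 probe sets within 4 h. The comparison set the 8 arrays with ABA against the 8 without it, which are 16 of the 64 arrays of the series. Every one of these 16 arrays came from roots on mixed nitrogen, 0.5 mM nitrate plus 0.5 mM ammonium. These arrays were picked by their titles alone, and no measured value entered the rule. The ABA dose was 1 µM, and the remaining difference between arrays was the hormone background: no hormone, 500 nM indole-acetic acid (IAA, the main natural auxin), 500 nM kinetin (a synthetic cytokinin) or both. Each of these 4 backgrounds held 2 arrays with and 2 without ABA, so ABA was balanced over IAA and kinetin.

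The plants were grown in hydroponic culture on ammonium succinate, for 14 to 16 days by the growth protocol (the series' design text gives a slightly younger age), and spent 24 h without nitrogen before treatment. Controls received mock solutions in place of the signals, and no genotype or transgene was given for any group. The roots were taken whole, so a change in the level of a transcript per cell and a change in the share of the cells that carry it cannot be told apart. Replicates 1 and 2 of a group are numbered in the labels without mention of separate cultures, so every p-value refers to the variation among these arrays, part of which may be technical.

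ABA is the hormone that plants make when water is short. Its soluble receptors bind it and hold back a class of protein phosphatases, which frees SnRK2 kinases to activate transcription factors on ABA-responsive genes. Among the best known targets are the late embryogenesis abundant (LEA) proteins and dehydrins, hydrophilic proteins that accumulate in drying seeds and in stressed tissue, while in roots ABA is also known for slowing growth and lateral root emergence. The upstream part of this pathway was not analysed here, because no probe set named through the annotation belonged to the lists of 14 receptors, 9 clade A phosphatases, 10 SnRK2 kinases or 20 ABA transcription factors.

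Level here is the deposited intensity in arbitrary units, scaled by the authors to a trimmed mean of 500 on every array. The ABA effect is the difference of mean log2(intensity + 1) with minus without ABA, with its standard error (SE), and passing means an adjusted p under 0.05 in a limma fit across all probe sets and all 64 arrays. At this threshold 7.61% of probe sets passed, 772 higher (3.39%) and 958 lower (4.21%) with ABA. Among probe sets named by the annotation, the shares were 2.8% higher and 3.91% lower. Counts of lists and families below are to be read against these shares. Levels of different probe sets are not comparable with each other, since each probe set has its own brightness.

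The 16 arrays differed in overall brightness, with and without ABA. The array median was 7.46 ± 0.38 (SD, n = 8) on the log2 scale with ABA and 7.67 ± 0.36 (SD, n = 8) without, and the difference of -0.21 gave p = 0.276 in a two-sided exact permutation test (adjusted p = 0.71 over 4 array measures). The log2 ratios of 3' to 5' control probe sets, a sign of RNA integrity, averaged 5.87 with ABA and 6.22 without for actin. They averaged 4.88 and 4.72 for GAPDH, and 3.22 and 3.00 for ubiquitin. The 3' signal was thus above the 5' signal on all 16 arrays, and actin ranged from 4.06 to 7.61 with ABA. In the same exact test the adjusted p-values were 0.71 for actin, 0.778 for GAPDH and 0.71 for ubiquitin. That test compares the groups and does not measure integrity itself. Replicate 2 had the higher median in 7 of the 8 groups, by 0.53 on average. The median ABA effect over all probe sets was -0.20, and single effects should be read against that shift; quantile normalization moved it to -0.04.

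The response was lopsided in size. Of the probe sets that passed, 87 rose at least 8-fold and 14 fell at least 8-fold, while 21 rose and 0 fell at least 32-fold. The 8 levels with ABA lay wholly above the 8 without it in 257 probe sets (1.13% of all) and wholly below in 114 (0.501%). Among 3653 probe sets with a mean of at least 9 on the log2 scale in both groups, 285 rose and 200 fell. The number of lowered probe sets leaned on single arrays: it was 625 without replicate 2 of the IAA and kinetin group lacking ABA, and 638 without replicate 2 of the kinetin group lacking ABA. Quantile normalization gave 982 higher and 822 lower, so which direction held more probe sets depended on the scaling.

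**Figure D1:**
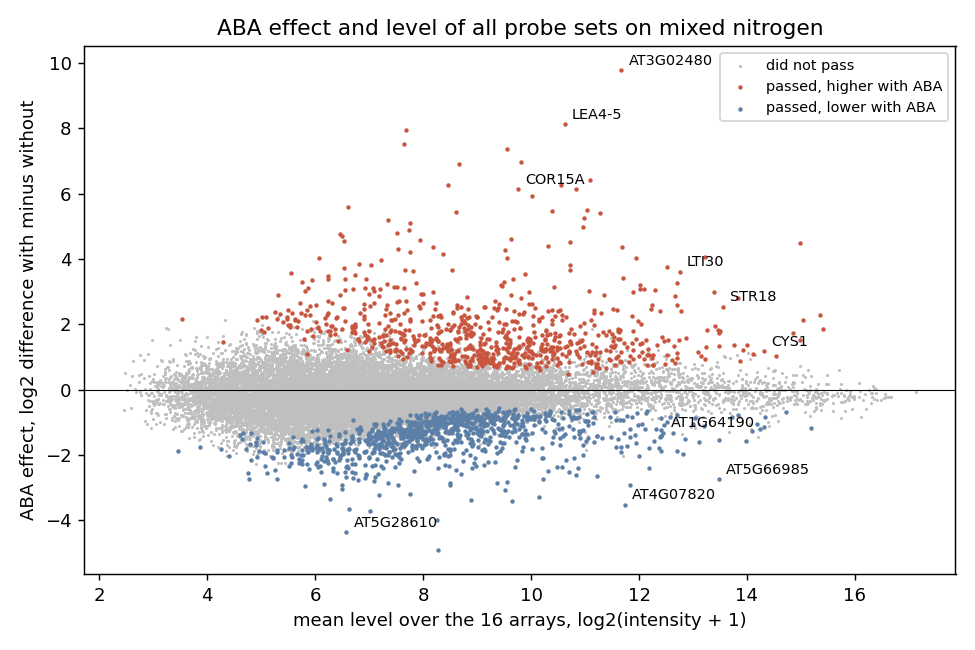
Each point is 1 of the 22746 probe sets, with its mean level over the 16 arrays, log2(intensity + 1), on the x axis and the ABA effect as a log2 difference on the y axis. Probe sets that passed are red (772, higher with ABA) or blue (958, lower), and the rises reach 9.78 while the named falls reach -4.36.

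The greatest rises among named genes began at low levels in roots without ABA, though not all near the lower end of the scale. Among the 12 largest, gene medians without ABA ran from 12.4 (AT4G31830) to 231 (AT3G51750). The control arrays themselves had median intensities of 142 to 271. AT3G02480, a LEA family gene, had levels of 23.9, 107 and 613 (lowest, median and highest of 8 arrays) without ABA and 39273, 99223 and 184675 with it. The dimmest ABA array was thus far above the brightest control, and the effect of 9.78 ± 0.59 (SE) was an 878-fold rise (adjusted p = 3.61e-15). LEA4-5 (AT5G06760), a group 4 LEA protein, went from 15.5, 109.9 and 313 to 18457, 26329 and 39384, a difference of 8.12 ± 0.46 or 279-fold (adjusted p = 6.72e-16). AT4G31830 stayed between 5.3 and 34.6 without ABA and lay between 2478 and 4564 with it, a 245-fold rise (adjusted p = 7.54e-19) with little scatter among the ABA arrays. Since the pseudocount of 1 and the low control levels enter these folds, they describe a rise from a low start more than an exact ratio.

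The 12 largest rises among named genes also took in AT1G16850 at 7.37, AT2G38905 (a cold-regulated gene) at 6.95, AT2G21820 at 6.89, AT5G66780 at 6.27, AT3G51750 and COR15A (AT2G42540) at 6.14, AT4G12580 at 5.91, AT3G17520 at 5.60 and AT3G57010 at 5.43. In each of these the arrays with ABA lay above all those without. AT3G51750 was the steadiest of these, with 89.4 to 453 before and 10203 to 19966 after. AT1G16850 spread widely with ABA, from 1526 to 26915, and AT5G66780 (622 to 11267) and AT3G57010 (439 to 8504) did so too. AT3G17520 had 432 to 1100 with ABA against 2.74 to 28.3 without, and its effect was 3.22 with a pseudocount of 64.

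LEA proteins, dehydrins and cold-regulated genes were the group with the most uniform rise. Of a list of 28 such genes 7 were named by the annotation, of which 6 rose and 0 fell. Among all named probe sets 2.8% rose and 3.91% fell. The median ABA effect of the 7 was 3.61 on the log2 scale against -0.20 for all probe sets. COR15A, which encodes a chloroplast protein that protects membranes during freezing, stood at 40.5, 108 and 202 without ABA and 1403, 7818 and 16482 with it. Its rise was 6.14 ± 0.49, or 70.3-fold (adjusted p = 9.2e-12). COR15A's neighbour and near copy COR15B (AT2G42530) rose by 2.21 ± 0.40 from 111, 185 and 417 to 105, 861 and 3385 (adjusted p = 0.000172), and the 2 groups overlapped. The probe sets of such close copies can share signal, so the split between COR15A and COR15B is uncertain.

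The groups were also separated in the dehydrins LTI30 and COR47. LTI30 (AT3G50970) had 1033, 1650.4 and 9919 without ABA and 17688, 24579.9 and 31239.8 with it, so all ABA arrays were above all controls. Its effect was 3.61 ± 0.27 or 12.2-fold (adjusted p = 1.22e-12), and the highest control was the first replicate of the IAA group. COR47 (AT1G20440) rose 9.13-fold, from 522, 1531 and 2113 to 8500, 12104 and 19743 (3.19 ± 0.24, adjusted p = 1.25e-12). LEA18 (AT2G35300) rose by 3.80 ± 0.56 (adjusted p = 6.54e-06), with levels of 54.5 to 1164 against 7.63 to 154 that overlapped, and by 2.46 with a pseudocount of 64. HVA22C, of the HVA22 family first described as ABA-induced in barley, was the list member that did not pass, at 0.24 ± 0.36 (adjusted p = 0.782).

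A second list, of LEA and seed maturation proteins matched on symbols and synonyms, was less uniform. The match missed AT3G02480, LTI30 and COR47, which all rose, so its counts do not describe these proteins as a whole. Of its 8 named genes 2 rose (LEA4-5 and LEA18), 1 fell and 5 did not pass. The gene that fell was the dehydrin family member AT1G54410, with 3903, 6543 and 18003 without ABA and 1885, 4190.1 and 6723 with it (-0.87 ± 0.25, adjusted p = 0.0247). That call was fragile. It ended (effects of -0.69 to -0.83) without replicate 1 of the no hormone, IAA or IAA and kinetin controls, replicate 2 of the kinetin controls, replicate 2 of the no hormone or IAA arrays with ABA, or replicate 1 of the kinetin arrays with ABA.

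**Figure D2:**
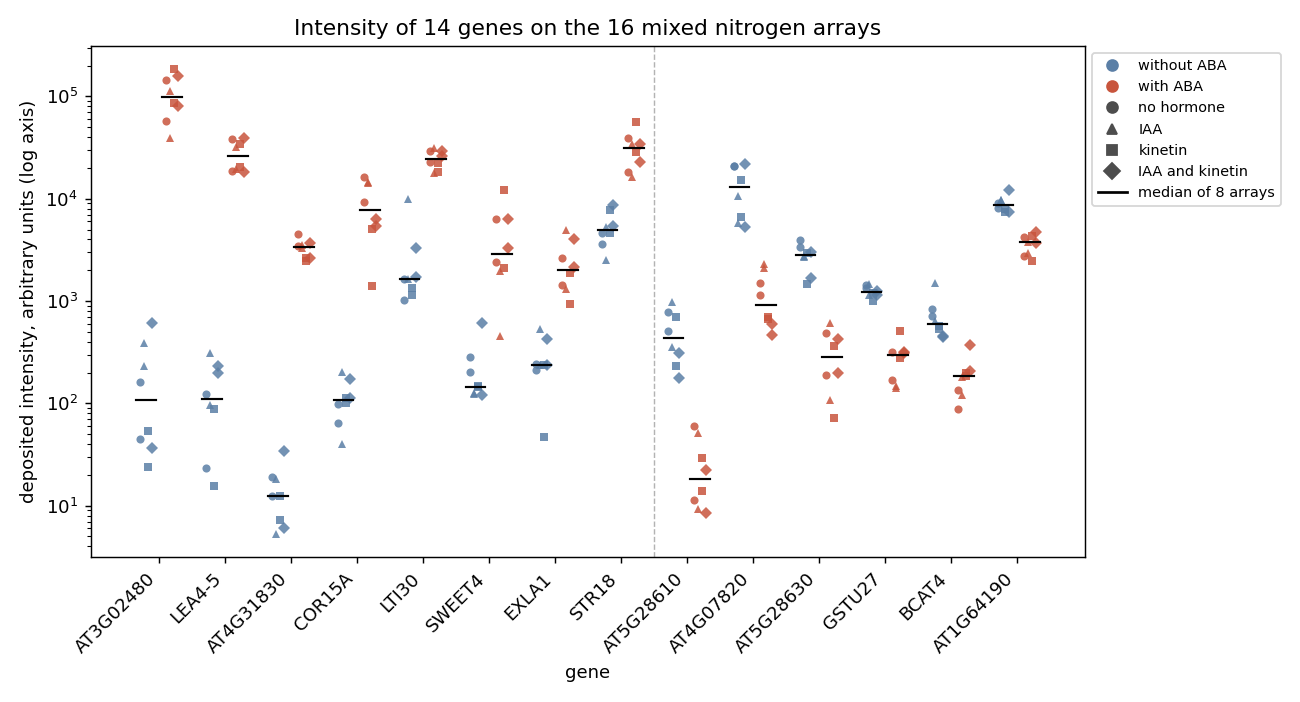
Deposited intensity (log axis) of 14 genes on each of the 16 arrays, without ABA in blue and with ABA in red, with the symbol giving the hormone background and the bar the median of 8 arrays; the dashed line parts genes that rose from those that fell. AT3G02480 moves from a median of 107 to 99223 and AT5G28610 from 434 to 18, and only SWEET4 among the 14 has overlapping groups.

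Genes that were already bright in control roots rose by less on the log scale but to high final levels. AT5G15190 went from 297, 705 and 1709.8 to 10789, 15241 and 23866, a 20.5-fold rise (4.36 ± 0.27, adjusted p = 7.82e-15). AT1G24600 rose 16.2-fold from 517, 1012 and 1617 to 9081, 16216 and 24590.1 (4.02 ± 0.29, adjusted p = 6.93e-13). In both genes the lowest ABA array exceeded the highest control several times over. AT5G19875 (3.26), AT3G53980 (3.07), AT5G61820 (3.02) and AT1G53560 (2.98) complete the 8 largest rises at this brightness with LTI30 and COR47, and none of them overlapped between groups. AT1G53560 had the smallest SE of these, 0.19, with 878 to 2080.3 without ABA and 6508 to 13293 with it.

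Lowered genes changed over a narrower range. AT5G28610 fell most among named genes, from 176, 434 and 972 without ABA to 8.49, 18 and 59.5 with it, a 20.5-fold drop without overlap (-4.36 ± 0.52, adjusted p = 1.59e-07, and -2.52 with a pseudocount of 64). AT5G28630, which lies close to it on chromosome 5 in the gene table, fell 10.6-fold from 1455, 2846 and 3947 to 72.6, 282 and 613 (-3.40 ± 0.37, adjusted p = 1.53e-08). AT4G07820, a PR1-like gene of a family of small secreted proteins, fell 11.4-fold from 5315, 12899 and 21995 to 465, 922 and 2287 (-3.52 ± 0.37, adjusted p = 1.08e-08). For all 3 genes every array with ABA was below every array without it.

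The other largest falls were AT1G07680 (-3.99), AT1G70985 (-3.72), the receptor-like kinase gene AT5G37450 (-3.65), AT4G21870 (-3.38), AT5G52670 (-3.29), AT3G44840 (-3.23), AT4G12360 (-3.20), the glutaredoxin family gene AT1G06830 (-3.07) and AT2G28690 (-2.93). AT1G07680, AT5G37450, AT4G21870 and AT4G12360 did not overlap between groups, whereas AT1G70985, AT5G52670, AT3G44840, AT1G06830 and AT2G28690 did. A pseudocount of 64 gave -2.38 for AT1G70985, -2.10 for AT5G37450, -1.94 for AT3G44840 and -1.95 for AT2G28690. AT5G52670 was the least secure, with 187, 5885 and 20890 without ABA and 68.7, 346 and 2822 with it. Its call (adjusted p = 0.00935) ended without replicate 2 of the IAA controls (-2.45, adjusted p = 0.0612) or without replicate 1 of the IAA arrays with ABA (-2.63, adjusted p = 0.0548). It also ended without the 6 arrays of the most extreme median (-2.06, adjusted p = 0.164) and with only the 16 arrays fitted (adjusted p = 0.162).

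Among bright genes the lowered ones included AT4G15390, with 1361, 2588 and 3992 without ABA and 482, 582 and 665 with it (-2.08 ± 0.23, adjusted p = 2.14e-08). AT5G53880 (-2.08) and AT5G19240 (-2.37) were likewise separated between groups. AT1G64405 (-2.52), AT1G59171 (-2.41) and AT3G01730 (-2.35) passed with overlapping levels, and AT3G01730 moved to -1.56 without the 6 arrays of the most extreme median. AT5G66985 depended on the replicate number. Its control levels were 7319.9, 35347 and 58699, while with ABA replicate 1 gave 659.6 to 1440.1 and replicate 2 gave 15609.8 to 23021, so the ABA effect was -4.32 among replicates 1 and -1.14 among replicates 2. The pooled effect of -2.73 ± 0.69 had an adjusted p of 0.008, and of 0.0506 without replicate 1 of the IAA arrays with ABA (-2.14).

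Sugar transport genes of the SWEET family, which let sugars pass across membranes along their gradient, moved in both directions. This family was assembled from gene symbols after the values were seen. Of 16 named members 4 rose, 1 fell and 11 did not pass (-1.02 to -0.09), with a family median of -0.31. The shares of all named probe sets were 2.8% higher and 3.91% lower. SWEET4 (AT3G28007) rose 16.3-fold, from 122, 146 and 613 to 452, 2860 and 12277 (4.02 ± 0.41, adjusted p = 3.09e-09), with 1 ABA array of the IAA group within the control range. SWEET13 (AT5G50800), a sucrose carrier, rose by 2.19 ± 0.37. SAG29 (AT5G13170), also known as SWEET15, rose by 1.91 ± 0.30, and SWEET2 (AT3G14770), a vacuolar member, by 1.46 ± 0.23. Neither SAG29 nor SWEET2 overlapped between groups.

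SWEET16 (AT3G16690), a sugar carrier of the vacuolar membrane, fell 3.4-fold from 2361, 11014 and 19558 to 1279, 2412 and 5944 (-1.77 ± 0.27, adjusted p = 1.56e-05). Outside the family the tonoplast sugar importer TMT1 (AT1G20840) fell by 1.62 ± 0.24 on the log2 scale, from a median of 7551 to 2608. SFP1 (AT5G27350), of the sugar porter family, rose by 1.95 ± 0.21 with no overlap, from 433 to 1695 without ABA to 2949 to 5242 with it. TMT1 and SFP1 were named after their values were seen.

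Expansins loosen cell walls during growth, and the expansin-like A and B genes are more distant members of that family. Of 19 named members 3 rose, 2 fell and 14 did not pass (-1.16 to 1.27), with a median of -0.47. Again, 2.8% of all named probe sets rose and 3.91% fell. The 3 that rose were all expansin-like: EXLA1 (AT3G45970) at 3.20 ± 0.34, EXLA2 (AT4G38400) at 2.45 ± 0.41 and EXLB1 (AT4G17030) at 1.22 ± 0.26. EXLA3, also expansin-like, did not pass, with 6.35 to 226 without ABA and 10.5 to 109 with it. The highest effect that did not pass, 1.27, was that of the classical member EXPA20. EXLB1 no longer passed without the 6 arrays of the most extreme median (0.87, adjusted p = 0.0704). EXLA1 had 46.6, 237 and 529.7 without ABA and 927, 2033 and 4959 with it, a clean separation (adjusted p = 1.42e-08). EXLA2, at 4.54 to 86.2 without ABA, gave 1.05 with the larger pseudocount of 64 and an adjusted p of 0.0631 with only the 16 arrays fitted.

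Both expansins that fell were classical members. EXPA15 (AT2G03090) fell from 841, 1085 and 1241 to 146, 342 and 547, again without overlap (-1.66 ± 0.25, adjusted p = 1.18e-05). EXPB3 (AT4G28250) fell by 0.90 ± 0.23 (adjusted p = 0.0113) and no longer passed without replicate 1 of the kinetin arrays with ABA (-0.75, adjusted p = 0.0512). EXPA7 and EXPA18, the root hair expansins, were among 3 named root hair genes of a list of 12, and none of the 3 passed, with EXPA7 at -0.59 (adjusted p = 0.113) and EXPA18 at -0.47 (adjusted p = 0.353).

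**Figure D3:**
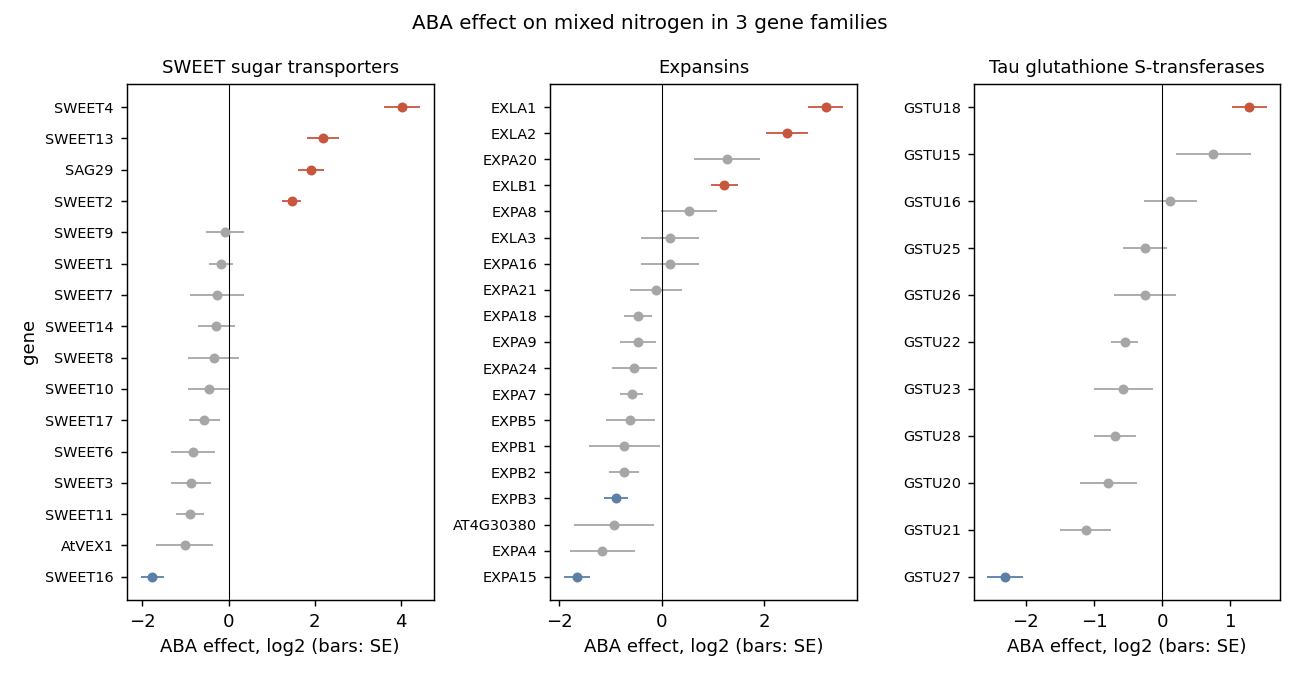
ABA effect as a log2 difference (x axis, bars are SE) for named SWEET, expansin and tau glutathione S-transferase genes, 1 gene per line. Red members passed as higher and blue as lower: 4 and 1 of 16 SWEET genes, 3 and 2 of 19 expansins, and 1 and 1 of 11 transferases.

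Nitrogen genes were of interest because both nitrogen ions were present in all 16 samples. Of 40 listed genes of nitrogen uptake and assimilation only 3 were named, of which 2 fell, 0 rose and 1 did not pass. Of all named probe sets 3.91% fell, and 3 genes are too few to set against that share. The 2 that fell encode 6-phosphogluconate dehydrogenases, enzymes of the oxidative pentose phosphate pathway that supplies reducing power for nitrite reduction. AT1G64190 (PGD1) went from 7417, 8628 and 12071 to 2450.1, 3745 and 4697, a 2.5-fold fall (-1.32 ± 0.20, adjusted p = 1.05e-05). AT5G41670 went from 1955, 2336 and 3729.7 to 823, 911 and 1279.8, a 2.67-fold fall (-1.42 ± 0.17, adjusted p = 2.01e-07). Neither gene overlapped between groups, and every hormone background gave a fall, from -1.53 to -1.18 for AT1G64190 and from -1.90 to -1.18 for AT5G41670. The falls were not particular to mixed nitrogen. Without nitrogen, on nitrate only and on ammonium only the effects were -0.63, -1.09 and -0.76 for AT1G64190. For AT5G41670 they were -0.82, -1.34 and -0.91, and no difference between media passed.

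NRT2.5, a high-affinity nitrate transporter gene that is known for its expression in nitrogen-starved plants, did not pass at -0.81 ± 0.31 (adjusted p = 0.106). It did pass without replicate 2 of the kinetin arrays with ABA (-0.98, adjusted p = 0.0476) or without replicate 1 of the IAA controls (-1.13, adjusted p = 0.00851), while leaving out replicate 2 of the IAA controls gave -0.50 (adjusted p = 0.401). Of 15 listed regulators of the nitrate response 3 were named, the HHO family genes AT1G25550, AT3G25790 and AT1G68670. Their effects were -0.28, 0.44 and -0.69, and none passed.

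Named genes of the other 2 hormones were too few to set against the shares of all named probe sets that passed. None of 7 auxin response genes passed, with effects of -1.44 to 0.66. Of 4 cytokinin genes 1 rose, RR16 (AT2G40670, also ARR16), a type-A response regulator that is itself induced by cytokinin and damps the signal. Its levels were also higher in the kinetin arrays. Without kinetin they were 41.3 to 179 in controls and 334 to 2599 with ABA, and with kinetin 1593 to 4219.8 in controls and 6830 to 14933 with ABA. Within each of these ranges the ABA arrays were higher, and the effect was 2.42 ± 0.31 (adjusted p = 4.14e-07). The related ARR15 stood at -1.48 ± 0.60 and did not pass (adjusted p = 0.137), while adding each array's median to the fit gave -1.84 (adjusted p = 0.026) and a pseudocount of 64 gave -0.83 (adjusted p = 0.23). The 3 named green tissue genes, markers of shoot material, did not pass, with effects of -0.69 to 1.13.

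Several genes with a symbol of their own, chosen after their values were seen, describe further functions. PUB19 (AT1G60190), a U-box ubiquitin ligase of ABA and drought responses, rose 9.01-fold from 24.4, 306 and 519 to 1719, 2089 and 2815 (3.17 ± 0.42, adjusted p = 7.93e-07). SKP2A (AT1G21410), an F-box protein that targets cell cycle regulators, rose 4.63-fold from 53.4, 167 and 279 to 583, 679 and 898 (2.21 ± 0.27, adjusted p = 1.7e-07). BGLU24 (AT5G28510), a beta-glucosidase, rose 36.5-fold from 6.97, 20.8 and 315 to 567, 953 and 2247 (5.19 ± 0.58, adjusted p = 2.68e-08, and 3.37 with a pseudocount of 64). All 3 were separated between groups.

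Other single genes chosen in the same way also rose. ALDH7B4 (AT1G54100), an aldehyde dehydrogenase of stress responses, rose 2.92-fold (1.55 ± 0.19, adjusted p = 3.21e-07). DI21 (AT4G15910), a drought-induced gene, rose 3.34-fold, from 12354, 16031 and 22087 to 29416, 58850.2 and 85011. CYS1 (AT5G12140), a cysteine protease inhibitor, rose 2.25-fold, from 9292, 12985 and 20417 to 23452, 29088 and 43229. ATG8H (AT3G06420), a ubiquitin-like protein of autophagosome formation, rose by 1.50 ± 0.28 and was the only one of 9 named autophagy genes to pass. With only the 16 arrays fitted, the adjusted p was 0.0793 for ATG8H and 0.0657 for CYS1.

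Single genes with roles in redox or sulfur chemistry, likewise chosen after their values were seen, included both rises and falls. STR18 (AT5G66170), a rhodanese-like sulfurtransferase, rose 5.83-fold from 2498, 4994 and 8654 to 16428, 31338 and 55647 (2.54 ± 0.30, adjusted p = 1.2e-07), without overlap. SRX (AT1G31170), sulfiredoxin, which reactivates oxidised peroxiredoxins, rose by 1.04 ± 0.26. MSRB9 (AT4G21850), a methionine sulfoxide reductase, fell 4.08-fold from 4219, 8260.2 and 22995 to 1117, 2075 and 3683. SUFE2 (AT1G67810), of iron-sulfur cluster assembly, fell by 1.53 ± 0.31, and BCAT4 (AT3G19710), which opens the methionine-derived glucosinolate pathway, fell 3.83-fold from 446, 603 and 1488 to 87.8, 183 and 376 (-1.94 ± 0.26, adjusted p = 1.3e-06). BCAT4 and MSRB9 did not overlap between groups. With only the 16 arrays fitted, SRX (adjusted p = 0.111) and SUFE2 (adjusted p = 0.0696) no longer passed.

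Of 12 named glutathione S-transferases 1 rose and 1 fell, where 2.8% of all named probe sets rose and 3.91% fell. GSTU27 (AT3G43800) fell 4.92-fold from 999, 1227 and 1484 to 141, 294 and 507 (-2.30 ± 0.26, adjusted p = 3.37e-08), while GSTU18 (AT1G10360) rose by 1.28 ± 0.25 (adjusted p = 0.000487, and 0.0776 with only the 16 arrays fitted). Of 24 named cytochrome P450 genes 1 fell and 0 rose, close to those same shares. The gene that fell was CYP78A9 (AT3G61880), of a family that promotes organ growth, at -1.97 ± 0.44. It did not pass without the 6 arrays of the most extreme median (-1.35, adjusted p = 0.0912). The related transcription factor genes tny (AT5G25810) and TINY2 (AT5G11590), of the AP2/ERF class, fell by 1.40 ± 0.27 and 1.82 ± 0.45 on the log2 scale. TINY2 was dim, at 63.5 to 318 without ABA. It gave -1.04 with a pseudocount of 64, and an adjusted p of 0.0677 with array weights and 0.0688 without the 6 arrays.

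The ABA effect was next set against the hormone background. Of the 1730 probe sets that passed, 1640 had the same sign in all 4 backgrounds, 742 higher and 898 lower. Passing itself favours equal signs, because the effect tested was the mean over these 4 backgrounds. The count therefore does not show whether the background mattered. No probe set passed the test of whether IAA or kinetin changed the ABA effect (limma, smallest adjusted p = 0.426 for IAA and 0.466 for kinetin), with 914 (4.02%) and 997 (4.38%) at an unadjusted p under 0.05. The median SE of these interaction tests was 0.87 on the log2 scale, and changes in the ABA effect several times that size could still fail to pass.

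For AT2G28690 the adjusted p of the interaction with IAA was that smallest value, 0.426. Its ABA effect was -0.96 with no hormone and -0.91 with kinetin, against -5.23 with IAA and -4.60 with IAA and kinetin. Control levels were 251 and 391 with no hormone, 333 and 223 with kinetin, 1124 and 1618 with IAA, and 401 and 881 with IAA and kinetin. With ABA they were 133 and 194, 36.3 and 564, 85.7 and 14, and 16 and 34.2 in the same order. The highest controls were thus those with IAA, and the kinetin arrays with ABA were far apart from each other. MSRB9 leaned the other way, at -2.86 with no hormone and -3.04 with kinetin but -0.90 with IAA and -1.32 with both, and AT1G06830 likewise at -3.86 and -4.29 against -1.50 and -2.60. Neither of those differences passed.

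**Figure D4:**
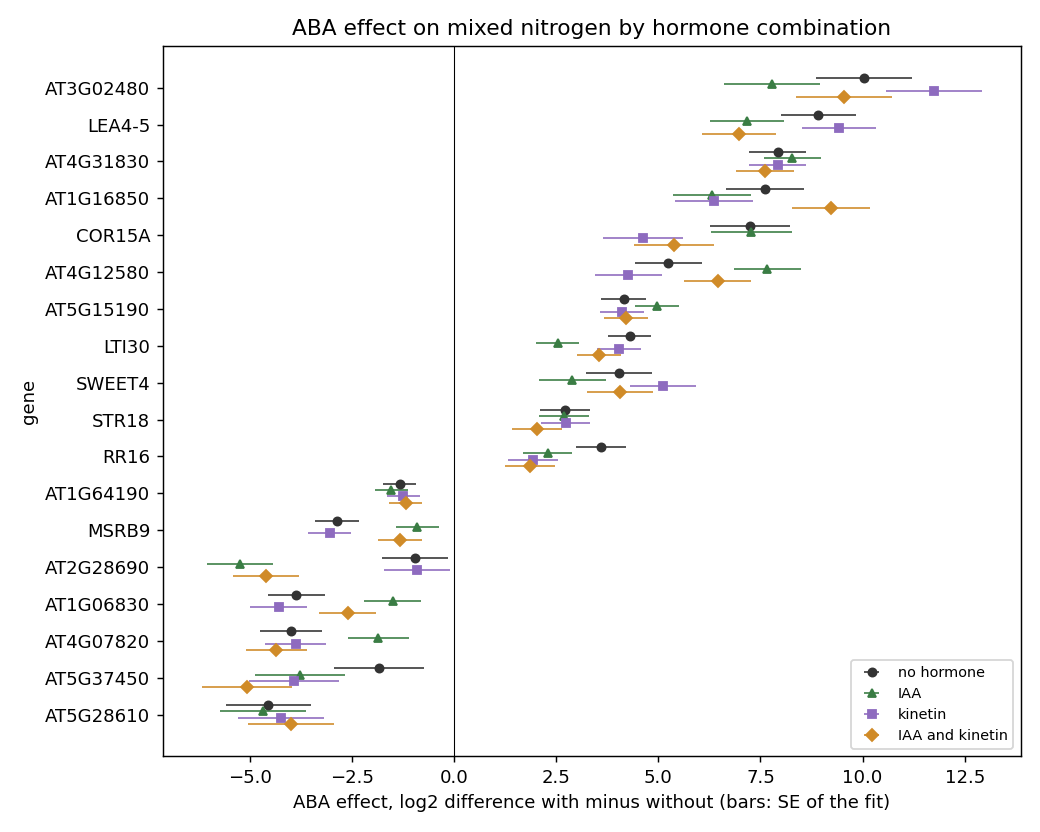
ABA effect on mixed nitrogen as a log2 difference (x axis, bars are SE of the fit) for 18 genes in each of the 4 hormone backgrounds. AT4G31830 and AT5G15190 keep close to the same effect in all 4, while AT2G28690 lies near -0.96 without IAA and below -4.60 with IAA; no interaction passed.

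A choice of genes by a mean effect that left out a given background shows how far effects carried over. Probe sets were picked if their mean effect over 3 backgrounds was at least 2-fold and passed. Passing in each of the 3 was not required. The residual spread used for passing came from all arrays, including those of the left-out background. Their effect was then read in the background left out. The median of the raised sets was 1.81 in the 3 and 1.76 in the arrays with no hormone (531 probe sets), 1.90 and 1.66 for IAA (555), 1.88 and 1.43 for kinetin (572), and 1.92 and 1.73 for both (511). For the lowered sets the pairs were -1.65 and -1.28, -1.69 and -1.43, -1.64 and -0.86, and -1.66 and -1.08. The left-out effect of lowered sets was therefore smaller in every background, with kinetin giving the smallest. The share with the same sign was 88.2% there against 93.5% for IAA. Brightness differed between these backgrounds too. With kinetin the array medians (log2) were 7.41 and 8.02 without ABA and 7.34 and 8.14 with it. With IAA they were 7.16 and 8.09 without ABA and 6.97 and 7.47 with it. Whether brightness shaped the left-out effects was not tested. The fall towards 0 in a left-out set is part of any such choice, and the backgrounds were not tested against each other here.

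The last question was whether mixed nitrogen altered the ABA response, compared with the same 8 against 8 arrays in the media without nitrogen, with 1 mM nitrate only, and with 1 mM ammonium only. These media share no arrays. ABA changed 1564 probe sets without nitrogen (6.88%), 1661 on nitrate (7.3%) and 1305 on ammonium (5.74%), against 1730 on mixed nitrogen. The test of the difference itself called 0 probe sets for mixed minus no nitrogen, 0 for mixed minus nitrate and 0 for mixed minus ammonium in limma, with 716, 923 and 722 at an unadjusted p under 0.05. Against the mean of the other 3 media, a comparison added after seeing the data, 0 passed and 778 (3.42%) had an unadjusted p under 0.05. The median SE was 0.61 for a single difference and 0.50 for that average.

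The same kind of carry-over can be read between media. Probe sets were picked if their mean effect over the other 3 media was at least 2-fold and passed. The raised ones (855) had a median effect of 1.47 there and 1.45 on mixed nitrogen. Of these 98.4% had the same sign and 66.1% passed on mixed nitrogen, against 3.39% of all probe sets. The lowered ones (979) had medians of -1.26 and -1.21, with 93.5% of the same sign and 37.1% passing, against 4.21% of all. The choice and passing on mixed nitrogen used the same residual spread, taken from all arrays. Probe sets with a small spread pass both more easily, so the shares that passed are not independent of the choice. Leaving out another medium in the same way gave -1.10 without nitrogen, -1.02 on nitrate and -1.10 on ammonium for the lowered sets, and 1.50, 1.49 and 1.45 for the raised ones. The medians on mixed nitrogen lay close to those of the media in which the probe sets were chosen, and the 4 media were not tested against each other in this summary.

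A few genes whose effect departed from the other media are given as examples, with their values only, since none passed. AT5G28610 fell by 4.36 on mixed nitrogen and by 1.64 without nitrogen, 2.07 on nitrate and 2.10 on ammonium, a difference from their mean of -2.42 ± 0.61 (adjusted p = 0.692). LPA66 (AT5G48910), a gene for a chloroplast RNA editing factor that was singled out for this pattern, fell by 2.12 ± 0.45 on mixed nitrogen (adjusted p = 0.00127, and -1.18 with a pseudocount of 64) from 74.5, 157 and 420.1 to 19.4, 37.2 and 91.6. Its effects elsewhere were 0.17, 0.09 and -0.15, and the difference from their mean was -2.16 ± 0.52 (adjusted p = 0.692). CYP78A9 stood at -1.97 against -0.16, -1.19 and -0.20.

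Departures from the medium without nitrogen came closest to passing in 2 genes. STR18 rose by 2.54 on mixed nitrogen, 2.34 on nitrate and 1.60 on ammonium but by 0.56 without nitrogen, and AT5G11930, a glutaredoxin family gene, had effects of -1.43, -1.70, -2.21 and -3.95 in that order. Both differences passed when each array's median entered the fit. AT5G11930's own fall on mixed nitrogen (adjusted p = 0.0119) did not pass without the 6 arrays of the most extreme median (-1.10, adjusted p = 0.136), without replicate 2 of the IAA controls (-1.11, adjusted p = 0.068) or replicate 1 of the IAA and kinetin arrays with ABA (-1.20, adjusted p = 0.0529). Among the largest rises, the spread between media differed from gene to gene. LEA4-5 rose by 8.56, 8.02 and 8.61 without nitrogen, on nitrate and on ammonium, and AT3G02480 by 9.07, 8.53 and 9.34. AT4G31830 rose by 8.10, 8.39 and 6.83, and AT3G57010 by 4.34, 3.97 and 4.35 against 5.43 on mixed nitrogen.

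**Figure D5:**
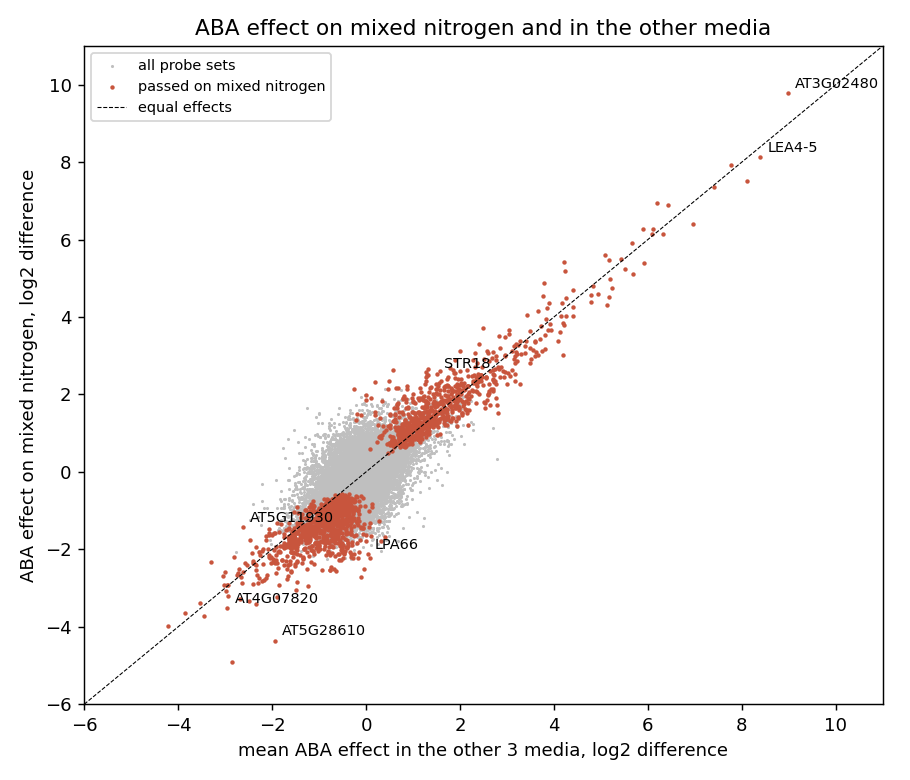
Each point is a probe set, with its mean ABA effect in the other 3 media on the x axis and its effect on mixed nitrogen on the y axis (both log2 differences); red points passed on mixed nitrogen and the dashed line marks equal effects. AT3G02480 and LEA4-5 lie near the line, whereas AT5G28610 and LPA66 lie below it by 2.42 and 2.16 without passing the test of that difference.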

How the data were processed

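Total root RNA, extracted with Trizol per the labels, was hybridised to Affymetrix arrays of 22810 probe sets. The deposited values are linear intensities, which the authors had scaled to the same trimmed mean (500, lowest and highest 2% left out) on every array, as the values show. The software that made them is not given in the sources used here. Array medians ranged from 6.71 to 8.25 on the log2 scale.

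After leaving out 64 control probe sets, log2(value + 1) of 22746 probe sets was fitted as 32 group means with limma 3.58.1 in R 4.3.3 (32 residual and 3.83 prior degrees of freedom), with Benjamini-Hochberg adjustment. A fold is on this scale, which understates changes of dim genes. The ABA effect was the mean over the 4 hormone backgrounds. All adjusted p-values of single genes come from this fit, which was tested on simulated data.

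The annotation gave 1 gene for 13513 probe sets, several for 503 and none for 8730; 13436 matched the RefSeq gene table (TAIR10.1, names only). It named 14.6% of protein-coding genes with a symbol of their own and 63.1% of those known by locus only, so list counts cover a part of each list. The brightest probe set stood for a gene. Named genes were the 12 largest changes each way that passed with the same sign in 4 of 4 backgrounds, the 8 largest each way with mean levels of at least 9 in both groups, and members of fixed lists. The comparison and the gene lists were chosen with earlier results of these data known. Alternatives changed the normalization, pseudocount (64), filter (dimmest 40% left out), covariates, weights, replicate block and arrays. The number of arrays limits the precision.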

Additional observations from a re-analysis of the deposited data

How the results depend on the processing

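The number of probe sets that passed for ABA was 1730, 1804 after quantile normalization, 2249 with the median of each array as a covariate, 1967 with a pseudocount of 64, 1860 without the dimmest 40%, 1332 without the 6 arrays of the most extreme median and 1702 with the actin ratio as a covariate. It was 1122 with array weights and 540 (350 higher, 190 lower) when only the 16 arrays were fitted. That fit has fewer residual degrees of freedom and takes the spread from these 16 arrays alone. The cause of the drop was not tested. Leaving out 1 array at a time gave 1331 to 2081, where the lone array of a group is assumed to vary like the others. Same-numbered arrays deviated together, with a correlation over 0.1, in 21 of 28 pairs of groups (-0.16 to 0.35). The labels name no shared batch, and the main fit did not treat the numbers as pairing the samples. It leaves this shared deviation in the residual spread. The replicate block gave 2038 calls and 2 for the difference from no nitrogen, and 0 for each other difference and interaction.

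The difference from no nitrogen also gave 2 calls when each array's median was a covariate, and 2 under a pseudocount of 64, and 0 in the other settings. With 1 array left out, calls numbered 0 for the differences from no nitrogen and from nitrate, 0 to 1 for that from ammonium, 0 to 9 for ABA by IAA and 0 for ABA by kinetin; the 9 came without replicate 1 of the kinetin arrays with ABA. The cause was not tested. With only the 16 arrays fitted, AT3G44840, AT5G66985, AT1G54410, EXLB1, EXPB3, CYP78A9 and AT5G11930 also lost their calls (adjusted p = 0.0631 to 0.261). Of 84 genes treated singly in the text 76 passed, and 61 of these kept their call and sign in every setting. Many of them were picked for large effects, so this share does not carry over to all probe sets that passed. HVA22C, which did not pass, moved to -0.14 with each array's median in the fit and ranged from -0.00 to 0.48 with 1 array left out.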
